A study of Mus musculus with 7 samples.

Results

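The genes described here are 10 genes of lipid handling that belong to the liver X receptor (LXR) and PPAR-gamma programs of macrophages: Nr1h3, Nr1h2, Pparg, Rxra, Abca1, Abcg1, Apoe, Cd36, Fabp4 and Lpl. They were chosen by name and found by their Ensembl identifiers, and all 10 were among the 16226 genes tested. The libraries hold RNA of tumor-associated macrophages, isolated by flow cytometry as F4/80+ cells from tumors of Lewis lung carcinoma (LLC), a mouse lung cancer line that had been grown under the skin. The 3 Dicer1-deleted libraries came from LysM-Cre;Dicer–/– mice, in which a Cre recombinase driven by the lysozyme M locus removes the floxed Dicer gene in myeloid cells. The 4 control libraries came from LysM-Cre;Dicer+/+ mice, so the controls carried the same Cre with an intact Dicer gene, and the labels call both LysM-Cre and Dicer lox always homozygous. The age of the mice is not given in the labels, and neither is the number of animals behind a library. The p-values therefore measure the spread between these libraries.

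LXR-alpha (Nr1h3) and LXR-beta (Nr1h2) are nuclear receptors that sense oxysterols, and PPAR-gamma (Pparg) senses fatty acid derivatives. Both pair with a retinoid X receptor such as RXR-alpha (Rxra) on DNA. In macrophages LXRs drive export of cholesterol through the transporters ABCA1 and ABCG1 and the lipid carrier apolipoprotein E, while PPAR-gamma drives uptake and handling of fatty acids through CD36, FABP4 and lipoprotein lipase (LPL). DICER, the product of Dicer1, trims precursor hairpins to mature microRNAs, which pair through their seed (bases 2 to 8) with sites in the 3' UTR of target messages.

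Some of the mature microRNAs with a seed match in these genes are shown because Dicer1 is the enzyme that makes them. They are examples and not the full list. Sequences are from RefSeq, 5' to 3', with the seed in capitals.
mmu-miR-33-5p: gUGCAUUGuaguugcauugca
mmu-miR-27a-3p: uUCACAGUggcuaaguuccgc
mmu-miR-27b-3p: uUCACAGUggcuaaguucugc
mmu-miR-130a-3p: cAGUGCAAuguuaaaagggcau
mmu-miR-155-5p: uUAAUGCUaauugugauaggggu
miR-27a and miR-27b share 1 seed and therefore the same sites. Some of the matching 29-base stretches of the longest annotated 3' UTRs (GRCm38, on the strand of the gene) follow, with the 7-base match in capitals. Matches of the same microRNAs in other genes, Rxra, Lpl and Cd36 among them, are not printed.
Abca1, miR-33, chr4:53033791-53033819, minus strand: ctgacactattCAATGCAatgcacttcaa
Abcg1, miR-33, chr17:31114991-31115019, plus strand: ctaacgcaacgCAATGCAacgcaatgcag
Pparg, miR-27, chr6:115490272-115490300, plus strand: ctaagaaatttACTGTGAaaaagcattta
Pparg, miR-130a, chr6:115490226-115490254, plus strand: ccttctattgaTTGCACTattattttgag
Nr1h3, miR-155, chr2:91184196-91184224, minus strand: gagccttgcgtAGCATTAagggagagtca

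Of 16 listed microRNAs, at least 1 had a match in 7 of the 10 genes, and none had one in Nr1h2, Apoe or Fabp4, whose 3' UTRs have 369, 271 and 432 bases. Of tested genes, 67.4% hold a match to at least 1 of the 16, so 7 of 10 is near the background. Abca1 held 16 matches of 10 microRNAs in 3156 bases, some of which overlap or share a site, among them 3 for miR-33 that begin at positions 135, 140 and 150 of its 3' UTR, counted from the stop codon. Abcg1 held 2 miR-33 matches at positions 717 and 727 of 3703 bases. A miR-33 match occurs in 7.3% of the 12131 tested genes with an annotated 3' UTR. miR-27 had a match in Pparg, Rxra, Abca1 and Lpl, against 17.3% of tested genes. miR-130a had one in Pparg, Rxra, Abca1, Abcg1 and Cd36, against 11.5%. miR-155 had one in Nr1h3, at position 123 of a 3' UTR of 275 bases, and in Lpl, against 9.2%. These shares are over 3' UTRs of any length and are not matched to the 10 genes. The 16 microRNAs were chosen by name, with earlier results of these data known. The counts set beside these shares are therefore a description and not a test of enrichment. The 3' UTRs of Abca1, Rxra (3269 bases) and Abcg1 are longer than those of 86.3%, 87.2% and 90.5% of tested genes. That of Lpl (2428 bases) is longer than those of 77.9%. The 3 matches in the 3' UTR of Pparg, where miR-27a and miR-27b count separately at 1 site, lie within 204 bases, a length under which 9.3% of tested genes fall. A match of letters is a description and was not tested as a site. Mature microRNAs were not analysed here. The gene Srebf2, which hosts miR-33, was at 14.2 ± 4.30 CPM in controls and 16.9 ± 5.83 CPM in Dicer1-deleted libraries (SD, n = 4 and 3).

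Binding sites of these receptors are direct repeats of AGGTCA, spaced by 4 bases for LXR with RXR (DR4) and by 1 base for PPAR with RXR (DR1). RefSeq promoters (GRCm38.p6, from 250 bases before to 50 after a start site) were matched for 7 of the 10 genes and not for Abcg1, Fabp4 and Lpl. With at most 2 mismatches over both copies of the repeat, on both strands, a DR1 was present in the promoter of Cd36 and in 1 promoter of Rxra. The copies are in capitals.
Cd36, chr5:17835942-17835964, plus strand: caagtAAGTCAgAGGCCAgagaa
Rxra, chr2:27709212-27709234, plus strand: agtaaTGGTCAtAGGCCAgtggg
The repeat began 63 bases before the start site in Cd36 and 75 bases before it in Rxra. Of 32841 promoters, 3.9% held such a DR1 and 3.0% such a DR4. No DR4 with at most 2 mismatches was found in these windows for any of the 7 genes. The nearest had 3 mismatches, in Abca1, Rxra and Pparg, at a level that 21.9% of promoters reach. These shares are per promoter, and some of the 7 genes have several promoters.

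The libraries held 42974524 to 51152370 uniquely placed reads, each mate counted. Dicer1 was at 7.84, 6.86 and 7.85 CPM (reads scaled to a common library size, with TMM factors) in the Dicer1-deleted libraries and at 15.7, 15.8, 18.6 and 17.1 CPM in the controls, and these gene totals include exons outside the deleted part. Dicer1-deleted replicate 2 stood apart: the SD of its log2 deviations from the mean of all libraries was 1.09, against 0.70 to 0.79 in the others. In that library genes of at most 1102 exon bases were 0.63 above and genes of at least 4928 exon bases 0.32 below the mean of all libraries (median, log2). Macrophage markers summed to 8417 to 16070 CPM in controls and 10010 to 16340 CPM in Dicer1-deleted libraries. Among them Lyz2, the locus that carries LysM-Cre, was lower in every Dicer1-deleted library (139 ± 50.5 to 56.9 ± 8.96 CPM, DESeq2 adjusted p 0.0144), and Fcgr1 was at 451 ± 116 and 848 ± 443 CPM with overlap. Of 8 adipocyte markers, 6 were listed under their symbols in no library and were taken as 0, Adipoq and Plin1 among them. Some listed gene identifiers had no symbol, so an absent marker cannot be told from an unmatched one. The sum of the 8 did not pass 0.81 CPM. Pparg and Fabp4 are also adipocyte genes, and the adipocyte markers that were listed gave almost no signal beside them. Endothelial markers, which matter because Cd36 and Fabp4 are also expressed by endothelium, summed to 4.40 to 17.0 CPM in controls and 39.5 to 72.5 CPM in Dicer1-deleted libraries. That sum was mostly Pecam1, a gene that leukocytes also express, and Cdh5 did not pass 1.49 CPM. Cldn5 was likewise listed in no library and taken as 0. Sums of B cell markers (6.42 to 11.1 and 15.1 to 27.5 CPM) and of T and NK cell markers (1.30 to 4.78 and 5.03 to 7.43 CPM) were also higher in every Dicer1-deleted library. So were the dendritic cell markers Xcr1 (0.849 ± 0.471 to 4.47 ± 1.59 CPM, DESeq2 adjusted p 0.000756) and Clec9a (0.264 ± 0.208 to 1.07 ± 0.242 CPM) and the neutrophil marker Csf3r (14.6 ± 5.15 to 27.1 ± 4.64 CPM), while the sums of both lists overlapped. These markers were chosen after their values were seen. The other 3 of the 5 dendritic cell markers had estimates below 0, with overlap. Cd209a was at 38.4 ± 49.6 CPM in controls and 2.64 ± 1.43 CPM in Dicer1-deleted libraries (log2 fold change -3.86). Flt3 had a log2 fold change of -1.64 and Zbtb46 one of -0.93. The part of these marker differences in the results below was not tested. In bulk RNA, fewer cells of a type and less RNA per cell cannot be told apart.

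Per gene length, Apoe was the most abundant of the 10 genes and the receptors Pparg and Rxra were the least abundant. In controls, deposited RPKM (reads scaled to gene length and library total) averaged 297 ± 214 for Apoe, 98.9 ± 46.0 for Cd36, 76.9 ± 28.3 for Abcg1, 34.8 ± 20.3 for Lpl and 30.4 ± 5.27 for Nr1h3 (SD, n = 4). Lower levels were found for Abca1 (24.1 ± 9.70), Fabp4 (12.7 ± 3.32), Nr1h2 (6.42 ± 3.46), Pparg (3.18 ± 0.979) and Rxra (3.08 ± 0.362). The order rests on wide spreads. Neighbors in it had overlapping ranges in the 4 controls except for Abcg1 over Lpl and Fabp4 over Nr1h2, and with annotated exon length in place of RPKM only 4 of the 10 genes kept their place, with Lpl above Abcg1, Nr1h2 above Fabp4 and Rxra above Pparg. Among the 3 receptors other than Rxra, Nr1h3 was the most abundant, and its RPKM was above that of Nr1h2 and Pparg in each of the 7 libraries.

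**Figure D1:**
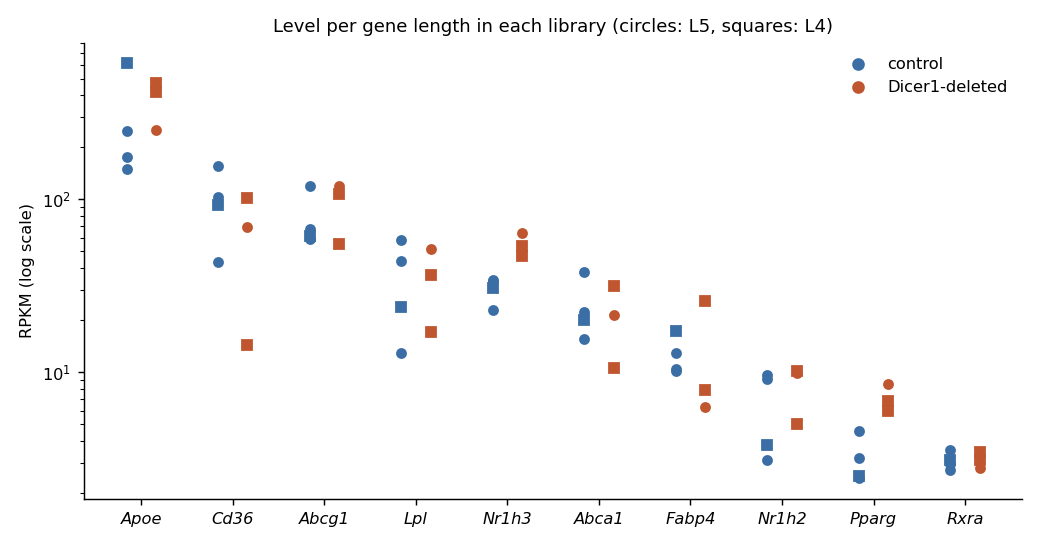
Deposited RPKM (log scale) of each of the 10 genes in every library, with controls left and Dicer1-deleted libraries right of each position, circles for title code L5 and squares for L4. Apoe lies highest in both groups, and the 4 control values of Nr1h3 lie below its 3 Dicer1-deleted values.

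Between the groups, 2 of the 10 genes did not overlap, and both were receptors that were higher in every Dicer1-deleted library: Nr1h3 and Pparg. Over all genes tested, 9.31% did not overlap in either direction and 3.86% did so with the Dicer1-deleted libraries higher, and 2 of 10 is a small count to set beside those shares. In edgeR's quasi-likelihood test with Benjamini-Hochberg adjustment over all genes, none of the 10 was called, where 0.0247% of all genes were (4 of 16226). With unadjusted p under 0.05 there were 2 of the 10, the same genes, against 1300 of all genes. In DESeq2 2 of the 10 were called, again Nr1h3 and Pparg, where 2.5% of all genes were called and 0.924% were called higher. The median log2 fold change of the 10 genes was 0.26, against 0.03 over all genes tested. Of the 10, 8 were above 0, where 8529 of the 16226 genes tested were. Among those 8, the estimates of Rxra, Fabp4 and Lpl changed sign in some of the other fits.

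**Figure D2:**
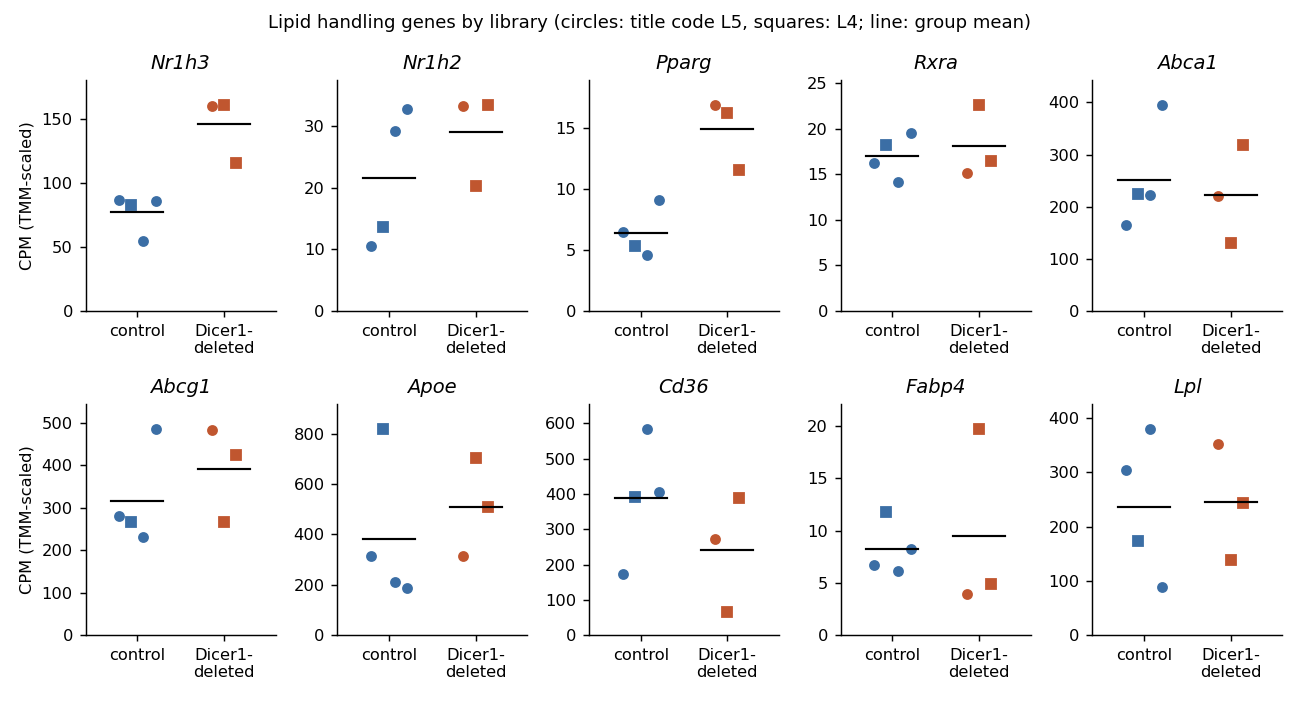
TMM-scaled CPM of the 10 genes in each library, with a line at each group's mean, circles for title code L5 and squares for L4. For Nr1h3 and Pparg the 3 Dicer1-deleted libraries all lie above the 4 controls, and for the other 8 genes the groups overlap.

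Nr1h3, the LXR-alpha gene (chr2:91184061-91202834, GRCm38, minus strand), was at 159.9, 161 and 116 CPM in the Dicer1-deleted libraries and at 87.1, 83.0, 54.9 and 85.8 CPM in the controls. Every Dicer1-deleted library was above every control, with control replicate 3 the lowest of the 7. Controls averaged 77.7 ± 15.3 CPM and Dicer1-deleted libraries 146 ± 25.8 CPM (SD, n = 4 and 3). On the log2 scale the difference was 0.91 ± 0.27 (SE), with a 95% interval of 0.31 to 1.51. The edgeR adjusted p was 0.322, and that of DESeq2 was 0.0487. The DESeq2 call was lost whichever 1 of the 7 libraries was left out, with adjusted p of 0.0517 to 0.279, and also with no filter on low counts (0.0615).

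Pparg (chr6:115360951-115490399, plus strand), the receptor gene with the largest estimate among the 10, was at 16.9, 16.2 and 11.6 CPM in the Dicer1-deleted libraries and at 6.45, 5.34, 4.63 and 9.07 CPM in the controls. The lowest Dicer1-deleted library was above the highest control. The averages of 6.37 ± 1.95 CPM in controls and 14.9 ± 2.91 CPM in Dicer1-deleted libraries differ 2.34-fold, and the log2 fold change was 1.23 ± 0.31, with a 95% interval of 0.54 to 1.91. The adjusted p was 0.233 in edgeR and 0.0184 in DESeq2. The DESeq2 call held without Dicer1-deleted replicate 3 (0.0267) and without control replicate 4 (0.00118), and was lost without each of the other 5 libraries (0.093 to 0.178). The value behind Pparg rests on 238 to 816 reads a library, against 3014 to 7706 for Nr1h3.

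The LXR-beta gene Nr1h2 (chr7:44549616-44553951, minus strand) was at 33.2, 20.2 and 33.5 CPM in the Dicer1-deleted libraries and at 10.6, 13.6, 29.2 and 32.8 CPM in the controls. The groups overlapped, and the controls split into a low and a high pair. Its log2 fold change was 0.43 ± 0.42, with an interval of -0.52 to 1.37 and an edgeR adjusted p of 0.994. Leaving out 1 library moved it from 0.21 (without control replicate 1) to 0.70 (without control replicate 4). Rxra (chr2:27676440-27762957, plus strand), the shared partner of both receptor families, was the steadiest of the 10 genes. It was at 15.2, 22.7 and 16.5 CPM in the Dicer1-deleted libraries and at 16.3, 18.2, 14.2 and 19.6 CPM in the controls, a ratio of 1.59 between the highest and lowest of the 7. The log2 fold change was 0.09 ± 0.25, and its interval of -0.48 to 0.65 leaves room for differences of that size either way.

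Abca1 (chr4:53030787-53159895, minus strand), which exports cholesterol to lipid-poor apolipoprotein, was at 221, 130.2 and 318 CPM in the Dicer1-deleted libraries and at 165, 224, 222 and 396 CPM in the controls. The lowest value was in Dicer1-deleted replicate 2 and the highest in control replicate 4, and the groups overlapped. The log2 fold change was -0.17 ± 0.39, with an interval of -1.06 to 0.71, and it turned positive without either of those libraries (0.10 and 0.13). Abcg1 (chr17:31057675-31117988, plus strand), which exports cholesterol to mature lipoprotein particles, was at 483, 268 and 424 CPM against 280.0, 267, 231 and 486 CPM. Its log2 fold change was 0.31 ± 0.34, with an interval of -0.46 to 1.08, and it was 0.13 without Dicer1-deleted replicate 1 and 0.60 without control replicate 4. Both transporters carry the miR-33 matches printed above, and neither passed the test in any of the fits run, so the change in their RNA was not resolved at this spread.

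Apoe (chr7:19696109-19699188, minus strand), which encodes an apolipoprotein of cholesterol export, was at 314, 703.1 and 509 CPM in the Dicer1-deleted libraries and at 316, 818, 211 and 188 CPM in the controls. The highest values were a control and a Dicer1-deleted library, and the groups overlapped. The log2 fold change was 0.41 ± 0.53, with an edgeR adjusted p of 0.996. The titles carry a code L4 or L5 and a CSF1R number, and the labels give the meaning of neither. The L code was not balanced over the 2 groups. The 3 libraries with L4 (703.1, 509 and 818 CPM) were all above the 4 with L5 (188 to 316 CPM), a pattern that was chosen after its values were seen. With genotype in the model, L5 was lower than L4 by 1.39 ± 0.33 on the log2 scale (edgeR, unadjusted p 0.00275, adjusted over all genes 0.729). Within L4 the Dicer1-deleted libraries were lower than the 1 control (log2 ratio -0.43), and within L5 the 1 Dicer1-deleted library was higher than the controls (0.40). The estimate was 0.011 with the L code as covariate and 1.13 without control replicate 2. It was 0.10 without Dicer1-deleted replicate 2, 0.18 without control replicate 4, 0.21 without control replicate 3 and 0.66 without Dicer1-deleted replicate 1.

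Cd36 (chr5:17781690-17888801, minus strand), a scavenger receptor and fatty acid transporter, was at 272, 67.5 and 389.8 CPM in the Dicer1-deleted libraries and at 174, 392, 584 and 407 CPM in the controls. It had the widest spread of the 10 genes, 8.67-fold between the highest and the lowest library, and the lowest value was in Dicer1-deleted replicate 2. The log2 fold change of -0.68 ± 0.58 moved to -0.23 without that library and to -1.20 without Dicer1-deleted replicate 3, and its interval was -1.97 to 0.61. Fabp4 (chr3:10204088-10208576, minus strand), a fatty acid binding protein, was at 3.98, 19.7 and 4.91 CPM against 6.75, 11.8, 6.16 and 8.29 CPM. Its highest value was in Dicer1-deleted replicate 2, and the other 2 Dicer1-deleted libraries lay below all 4 controls. The log2 fold change of 0.21 ± 0.54 became -0.89 without replicate 2, with an adjusted p of 0.489. Fabp4 is the shortest of the 10 genes (896 exon bases). Genes of at most 1102 exon bases were 0.63 above the mean of all libraries in replicate 2, 0.27 and 0.29 above it in control replicates 1 and 2, and below it in the other 4 (median, log2), and the part of gene length in the Fabp4 values was not tested. Lpl (chr8:68880491-68907448, plus strand), which frees fatty acids from lipoproteins, was at 352, 139 and 244 CPM against 304, 174, 380.3 and 88.7 CPM. The groups overlapped fully, with a log2 fold change of 0.05 ± 0.50.

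**Figure D3:**
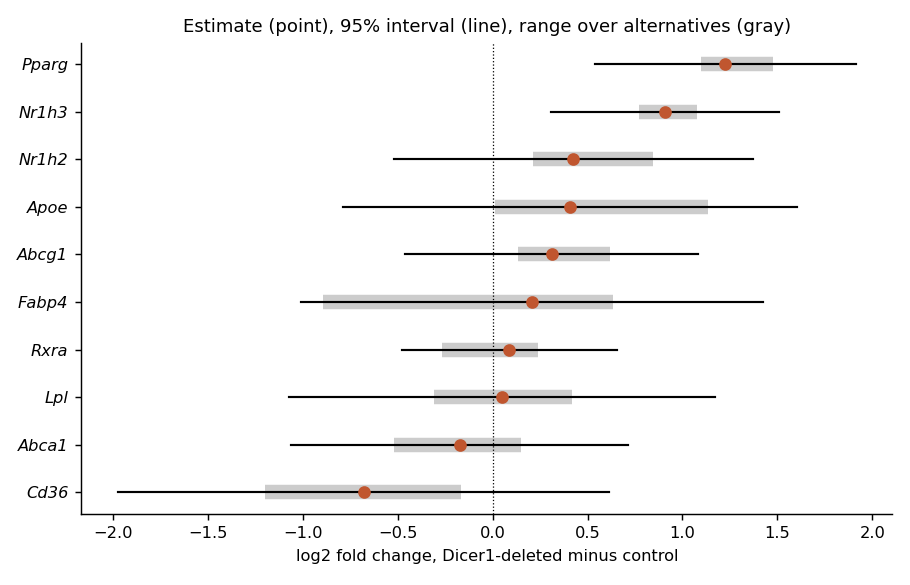
Log2 fold change (Dicer1-deleted minus control) of the 10 genes from edgeR, with its 95% interval as a line and the range over the alternatives as a gray bar. Only the intervals of Nr1h3 and Pparg lie above 0, and the range crosses 0 for Fabp4, Rxra, Lpl and Abca1.

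Among 122 other genes in 7 lists of the same biology, 112 were tested and edgeR called none, and DESeq2 called 1 higher and 3 lower, beside 2.5% of all genes. Groups did not overlap for 5 that were higher and 9 that were lower, beside 9.31% of all genes, and the median log2 fold change was 0.03, as over all genes tested. Of 16 other LXR targets, 13 were above 0 (median 0.16), where 8529 of the 16226 genes tested were. Npc2 and Npc1, which move cholesterol out of lysosomes, were at 0.15 ± 0.37 and -0.05 ± 0.26 on the log2 scale, and Smpdl3a, a phosphodiesterase, at 0.83 ± 0.37 (edgeR adjusted p 0.627). Pltp, the phospholipid transfer protein, was lower in every Dicer1-deleted library (801 ± 201 to 378 ± 258 CPM, log2 fold change -1.08 ± 0.56), and Apoc2, the activator of LPL and chosen after its values were seen, was higher in every one (38.8 ± 11.6 to 112 ± 92.6 CPM, 1.53 ± 0.49). Their adjusted p was 0.728 and 0.368 in edgeR. Without Dicer1-deleted replicate 2 the estimates were -0.62 for Pltp and 0.59 for Apoc2.

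Of 14 tested PPAR targets outside the 10 genes, 9 were below 0 (median -0.24) and none was called by edgeR or DESeq2. Over all 16226 genes tested, 7697 were below 0. Plin2, which coats lipid droplets and was the most abundant, was at 1155 ± 309 CPM in controls and 1404 ± 274 CPM in Dicer1-deleted libraries. Fabp5, a fatty acid binding protein, was at 1.07 ± 0.48 on the log2 scale (0.28 without Dicer1-deleted replicate 2), Ucp2, a mitochondrial carrier, at 0.16 ± 0.31 and Ech1, an enzyme of fatty acid breakdown, at -0.17 ± 0.34. Among genes chosen after their values were seen, Angptl4, an inhibitor of LPL, was higher (1.26 ± 0.545 to 3.08 ± 1.02 CPM, log2 1.29) and Acadm, an enzyme of fatty acid oxidation, lower (68.3 ± 9.53 to 44.8 ± 10.6 CPM, log2 -0.61) without overlap. Their edgeR adjusted p was 0.456 and 0.593.

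In the list of other nuclear receptors and coregulators, 21 of 23 were tested and 9 were above 0 (median -0.14). The corepressor Ncor1, which keeps unliganded receptors silent, was level (log2 0.00 ± 0.23), and the coactivators Ncoa3 (0.23 ± 0.35) and Med1 (-0.14 ± 0.43) had intervals around 0. Nr4a1, an orphan receptor, was at 285 ± 169 and 235 ± 96.6 CPM. Other receptors stood apart without overlap and were chosen after their values were seen: Ppard was higher (2.69 ± 0.602 to 5.59 ± 1.73 CPM, edgeR adjusted p 0.367), and Rarb (1.70 ± 1.30 to 0.457 ± 0.269 CPM, 0.502), Nr1d1 (7.40 ± 2.42 to 2.38 ± 1.55 CPM, 0.372) and Rxrg were lower. Rxrb, a retinoid X receptor gene of the same list, was at 5.03 ± 1.35 CPM in controls and 7.31 ± 4.88 CPM in Dicer1-deleted libraries, with overlap. Rxrg, the least abundant of the retinoid X receptor genes, was at 0.461, 1.53, 1.42 and 0.0456 CPM in controls and at 0 in all 3 Dicer1-deleted libraries. Its control mean was 19.3-fold above a floor of 3 read pairs (6 reads) over the Dicer1-deleted group (0.0446 CPM). Control replicate 4 was itself near that floor. DESeq2 called Rxrg (adjusted p 0.000618) and edgeR did not (0.234). Without control replicate 1, 2 or 3 Rxrg did not pass the filter on low counts and was not tested.

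Uptake receptors were mixed, with 8 of 13 tested genes above 0 (median 0.09). Msr1 and Lrp1, abundant receptors for modified and other lipoproteins, had log2 fold changes of 0.01 ± 0.31 and 0.09 ± 0.28, and Cd68 one of -0.11 ± 0.39. Cxcl16, a chemokine that also takes up oxidized lipoprotein, was higher in every Dicer1-deleted library (290.4 ± 71.4 to 536 ± 158 CPM, edgeR adjusted p 0.463). Scarb1, the high-density lipoprotein receptor, was higher in the DESeq2 fit (18.7 ± 5.79 to 41.5 ± 11.7 CPM, adjusted p 0.0383, edgeR 0.286) and Vldlr was lower (DESeq2 adjusted p 1.19e-06, edgeR 0.111), both chosen after their values were seen. The call of Scarb1 held without Dicer1-deleted replicate 1 and without control replicate 3, and was lost without each of the other 5 libraries, while that of Vldlr held in all 7 such fits. Vldlr was at 2.35, 1.61, 2.30 and 0.319 CPM in controls and at 0 in the 3 Dicer1-deleted libraries. Its control mean was 36.8-fold above the same floor, and the median of the list is the same with Vldlr at that floor.

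Genes of cholesterol synthesis, which are regulated opposite to LXR targets in cells loaded with sterol, had a median of -0.09, with 14 of 23 tested genes below 0 and none called. Msmo1 was at 162 ± 32.4 and 113 ± 38.4 CPM, Ebp at 127 ± 29.0 and 123 ± 53.6 CPM and Cyp51 at 50.6 ± 34.2 and 47.7 ± 31.6 CPM. The list of lipid storage, hydrolysis and oxysterol enzymes had the highest median, 0.27, with 10 of 14 tested genes above 0 and no call. Lipa, the lysosomal lipase, was at 270 ± 79.4 and 464 ± 216 CPM, Soat1, which esterifies cholesterol, at 253 ± 133 and 293 ± 158 CPM, and Nceh1, which hydrolyzes cholesteryl esters, at 144 ± 36.4 and 162 ± 9.09 CPM. Hilpda, an inhibitor of lipolysis, was at 339, 1549 and 335 CPM in Dicer1-deleted libraries and averaged 479.5 ± 91.6 CPM in controls. Its log2 fold change of 0.63 turned to -0.52 without Dicer1-deleted replicate 2. Of 11 tested relatives of the transporter, binding protein and lipase families, the median was 0.00. The abundant Abcg3 was at 137 ± 34.9 and 259 ± 147 CPM, Abca3 at 27.2 ± 4.33 and 33.2 ± 6.69 CPM, Abca9 at 23.2 ± 14.0 and 23.2 ± 11.6 CPM and Lmf1, which folds lipases, at 36.6 ± 3.33 and 30.4 ± 4.95 CPM. Fabp7, chosen after its values were seen, was lower in every Dicer1-deleted library (3.15 ± 0.795 to 0.52 ± 0.273 CPM, DESeq2 adjusted p 0.000127, edgeR 0.15).

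**Figure D4:**
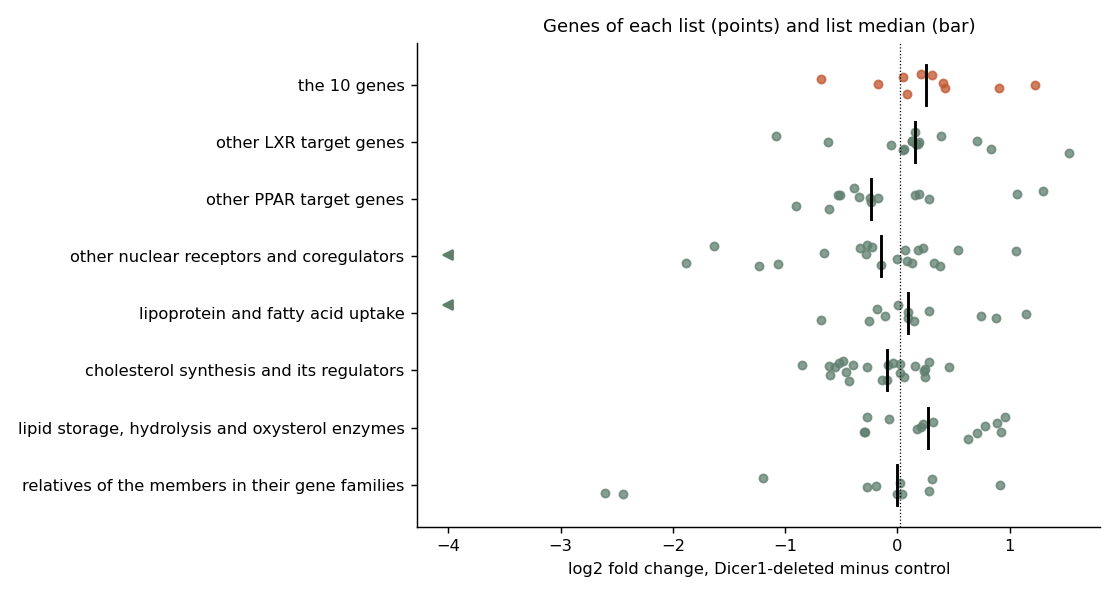
Log2 fold change (Dicer1-deleted minus control) of each tested gene in the 10 lipid handling genes and in the 7 lists, with the median as a bar and the median of all genes as a dotted line. Triangles mark Vldlr and Rxrg, which were at 0 in all Dicer1-deleted libraries and lie beyond the left edge.

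The genes whose pattern over the 7 libraries was most like that of Nr1h3 were Serpina3g, Slamf8 and Sp110 (Pearson r of log2 CPM 0.99, 0.98 and 0.98, Spearman's rho 0.89, 0.96 and 0.89), among 8775 genes compared. For Pparg they were Clcf1, Arhgap27 and Cd276 (r 0.97, 0.97 and 0.97, rho 0.93, 0.96 and 0.96). For the other receptors they were Prelid1, Mus81 and Herpud1 (Nr1h2) and Sav1, Strn4 and Mettl9 (Rxra). For the export genes they were Cdc73, Bhlhe41 and Svbp (Abca1), Cd2ap, Serpinb9 and Khdc4 (Abcg1) and Il2rg, Rexo2 and Gng5-ps (Apoe). For the uptake genes they were Gpr85, Dhrs3 and Abi2 (Cd36), Znhit1, Cdk9 and Ube2m (Fabp4) and Ttf2, Kmo and Acsl3 (Lpl), with r from 0.94 to 0.99 over these 8 genes. Spearman's rho over the same 8 ran from 0.64 to 1, and was lowest for Khdc4 (0.64) and Cd2ap (0.71) beside Abcg1. The r values are the highest of many over 7 points that share library depth and length effects, and no test was made on them.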

How the data were processed

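The deposited files give, for each gene, unique read counts, the main input here. Expected counts, which add fractions of reads with several placements, are a further column, per the file headers. RPKM was deposited too, with the gene length and total behind it not stated. The submitters' processing notes name Bowtie2. The build, the annotation and the counter: not given in the sources used here. Per the labels, 2 ng of RNA was amplified with a kit that does not mark strand. Counts were even, so both mates were counted, and reads amplified by PCR without molecular identifiers are not independent molecules. The files listed 24084 genes, of which 21813 were matched to a symbol, and 31124 unlisted values were set to 0. Positions and 3' UTRs come from GENCODE (GRCm38). No exon of the 10 genes shares bases with an exon of another gene in that annotation. Gm13783 and Gm23390 overlap the span of Nr1h3, Gm44079 that of Pparg and Gm25447 that of Abcg1, without shared exon bases.

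Dicer1-deleted and control libraries were compared in R 4.3.3 with the quasi-likelihood test of edgeR 4.0.16, after filterByExpr and TMM scaling, adjusted by Benjamini-Hochberg over 16226 genes at 0.05, and fold changes are Dicer1-deleted minus control. DESeq2 1.42.0 and limma 3.58.1 were alternatives, and the workflow was tested on simulated data. The common dispersion was 0.203, a coefficient of variation of 45.1%. The 10 genes, the lists, the markers and the microRNAs were chosen with earlier results of these data known. By rule the text names all 10 genes, and of each list the called genes and the 4 with the highest mean CPM, and the 3 genes most similar to each of the 10. For 1 list gene that the rule takes, the values are not reported here. No scaling tried moved the median of all genes by over 0.1.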

Additional observations from a re-analysis of the deposited data

Results flagged for a closer look

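Among 38 genes checked in the 4 controls, 1 library stood far from the other 3 for 4 genes, where chance gives about 1 in 20. Nr1h3 was lowest in control replicate 3, at 54.9 CPM. Nr4a1 and Cyp51 were highest in that library, at 539 and 101 CPM. Pltp was highest in control replicate 2, at 1101 CPM. No explanation was tested.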

How the results depend on the processing

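Nr1h3, Nr1h2, Pparg, Abcg1 and Apoe kept a positive and Cd36 a negative estimate in all of 26 alternatives. Leaving out 1 library in edgeR gave -0.11 to 0.20 for Rxra, -0.52 to 0.13 for Abca1, -0.89 to 0.57 for Fabp4 and -0.31 to 0.38 for Lpl. Rxra was -0.021 with the L code as covariate, -0.11 without Dicer1-deleted replicate 2 (-0.10 in DESeq2), -0.066 with voom quality weights and -0.27 with exon length correction and without that library. Abca1 was 0.10 without Dicer1-deleted replicate 2 (0.10 in DESeq2), 0.13 without control replicate 4 (0.15 in DESeq2) and 0.13 with voom quality weights. Fabp4 was -0.16 in limma-voom, -0.40 with the L code, -0.89 without Dicer1-deleted replicate 2 (-0.89 in DESeq2), -0.72 with voom quality weights and -0.68 with length correction and without that library; no value could be given with a filter of 10 CPM in 3 libraries. Lpl was -0.31 without Dicer1-deleted replicate 1 (-0.28 in DESeq2), -0.06 without control replicate 2 (-0.054 in DESeq2) and -0.22 without control replicate 4 (-0.20 in DESeq2). The cause was not tested.

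Against 4 genes called in edgeR, 405 were called in DESeq2, 2 in limma-voom, 42 with no filter, 1 with the 10 CPM filter, 0 with the L code as covariate, 80 with voom quality weights, 10 with exon length correction and 10 with it and without Dicer1-deleted replicate 2, and 397 in DESeq2 with no filter. Leaving out 1 library gave 0 to 3 in edgeR and, in DESeq2, 319, 337 and 396 without Dicer1-deleted replicates 1, 2 and 3 and 237, 333, 299 and 370 without control replicates 1 to 4. Of the 10 genes, DESeq2 called 2, or 1 with no filter and 0 to 1 without 1 library. Of the list genes, edgeR called 1 with no filter, voom quality weights called 1, and DESeq2 called 4, also with no filter, and 6, 5 and 5 without Dicer1-deleted replicates 1, 2 and 3 and 2, 2, 4 and 5 without control replicates 1 to 4. Exon length left 4 of 10 genes in place in the control order. With at most 1 mismatch 0 promoters held a repeat, and an 8-base match left 6 genes with a microRNA match. Fabp4 joined the genes without overlap when Dicer1-deleted replicate 2 was left out, which gives 3, in a setting where 21.1% of all genes do not overlap. The fits added after the data were seen were DESeq2 without libraries or filter, quality weights, length correction, read pairs and the overlap counts. Of 40 list genes, 17 turned sign when 1 library was left out in edgeR, 8 of them without Dicer1-deleted replicate 2. No paired analysis was possible because the labels pair no libraries across the groups, and the replicate numbers used here are names only.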
